A study of Mus musculus with 12 samples.

Results

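Retinal explant culture changed the transcriptome of adult mouse retina, and for some genes the size or the direction of that change depended on the strain. The quantity described here is the strain by explant culture interaction, defined as the change in 129 (129 explant minus 129 intact retina) minus the change in B6 (B6 explant minus B6 intact retina). It rests on 8 of the 12 arrays of the series, namely 2 arrays of 129 explants, 2 of intact 129 retina, 2 of B6 explants and 2 of intact B6 retina. The 129 mice were 129X1/SvJJmsSlc and the B6 mice C57BL/6NCrSlc, all of them 10 weeks old and, per the study's methods, male. Explants were neural retinas freed of lens and pigmented epithelium and kept in culture for 3 days. Their medium held vehicle (DMSO) and EdU, a nucleoside label of dividing cells. Intact retinas were not cultured. The other 4 arrays, explants of each strain with the GSK3 inhibitor CHIR99021 at 15 µM, entered the estimate of the spread and are otherwise used only for the strain difference of the interferon genes. The study set the strains side by side to ask what governs the division of Müller glia, the radial glia of the retina, after damage. All changes, differences and interactions are on the log2 scale.

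Intensities came from Affymetrix Mouse Genome 430 2.0 arrays, and the median of an array lay between 68.8 and 70.7. By their labels the arrays of a group are biological replicates, and since it is not stated whether both retinas came from 1 animal, p-values measure the spread between these samples. The table gives no detection calls, so that a fold against a dim group is a ratio of intensities and not of RNA amounts. Replicate arrays correlated at r = 0.9965 or higher. The markers bore out the label of neural retina, with summed intensities of 26 rod genes between 79460 and 86880 in the 129 explants, 194900 and 197800 in intact 129 retina, 94250 and 98270 in the B6 explants and 203500 and 205600 in intact B6 retina. Over 13 genes of pigmented epithelium and melanocytes the sum was 4723 to 11110 in intact 129 retina and 10070 to 12220 in intact B6 retina. In explants it was 614 to 644 for 129 and 657 to 667 for B6. Lens genes stood apart in intact 129 retina. Their summed intensity over 14 genes was 1415 in one intact 129 array and 31300 in the other, against 490 to 607 in the other 6 arrays, and no interaction of a lens gene was called at the probe set with its highest mean level. RNA of whole retina was measured, so that fewer cells of a type and less RNA per cell cannot be told apart.

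Interferons are secreted after infection or tissue injury and act through receptors that activate STAT and IRF transcription factors, which then raise a large shared set of target genes. In the retina, microglia are the resident macrophages, and Müller glia and microglia both respond to damage with cytokines and with target genes of this kind. Müller glia that leave their resting state turn on cyclins and the replication machinery before they divide.

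A probe set was called when its interaction had a Benjamini-Hochberg adjusted p under 0.05 over all 45037 probe sets. A positive interaction means a larger rise or a smaller fall in 129. In all, 1161 probe sets were called (2.58%), 696 with a positive interaction (1.55%) and 465 with a negative one (1.03%). Centring the arrays on 8 housekeeping genes, which moved the median of all probe sets by -0.138, turned this split to 384 positive and 1417 negative calls. These counts depended on every array of the contrast but 1. Without any 1 of the other 7 arrays the positive calls numbered 208 to 393 and the negative ones 144 to 294, lowest in both directions without 129 explant replicate 2. Without B6 intact retina replicate 2 they numbered 739 and 399. The description therefore rests on held calls, those made with the same sign in the fit of all arrays and in each of 12 fits that left out 1 array. There were 271 held probe sets (0.602%), 158 positive (0.351%) and 113 negative (0.251%). Of the held interactions 191 were at least 2-fold and 39 at least 4-fold. A single symbol stood for 240 held probe sets and 208 genes, and by gene 124 of 18193 were held higher in 129 at any probe set (0.682%) and 85 held lower (0.467%). Held members of the gene lists are also counted at any probe set and stand beside these shares. Medians of lists and counts of positive or negative members use 1 probe set for each gene. The median interaction of all genes was -0.0025.

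Held interactions took several forms. Among the 158 positive ones, the change was called up in both strains but larger in 129 for 81, up in 129 alone for 34, and up in 129 but down in B6 for 17. A further 15 fell in B6 alone, and 11 fell in both strains with the smaller fall in 129. Of the 113 negative ones, 38 rose in B6 alone and 29 rose in both strains with the larger rise in B6. Another 21 fell in 129 alone, 13 fell in 129 and rose in B6, and 12 fell in both strains. The strain difference, 129 minus B6, was called in explants but not in intact retina for 72 positive and 56 negative ones. It was called in intact retina but not in explants for 22 positive and 19 negative ones, so that these probe sets differed at the start and no longer passed the test after culture.

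**Figure D1:**
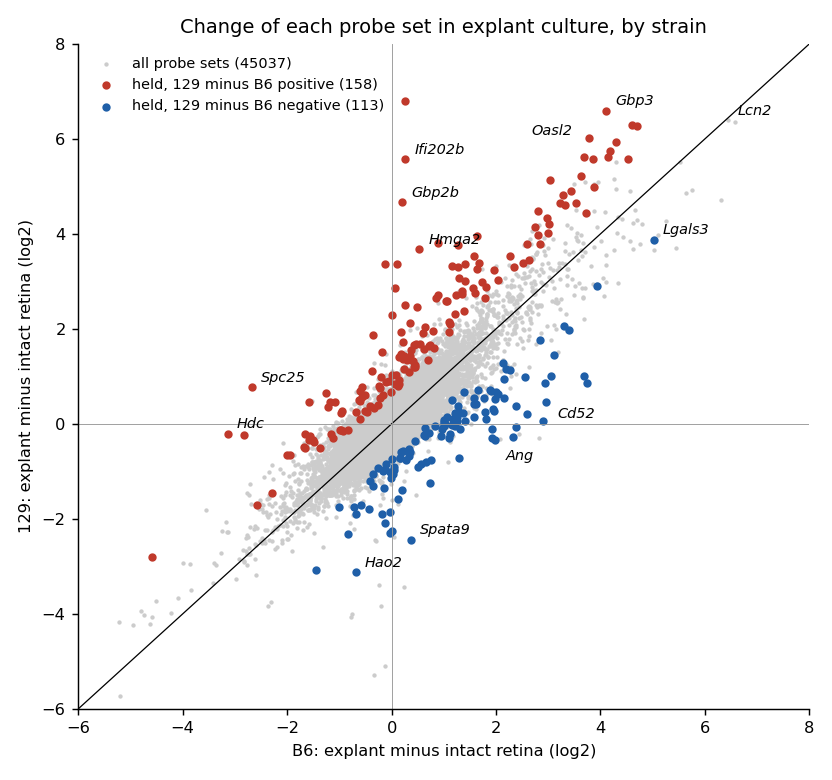
Change in explant culture of each probe set in 129 (vertical axis) and in B6 (horizontal axis), both as log2 of explant over intact retina, with the diagonal marking equal change. Red points are the 158 held probe sets with a positive interaction and blue points the 113 with a negative one. Ifi202b lies at 5.57 in 129 and 0.26 in B6, and Cd52 at 0.06 in 129 and 2.90 in B6.

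Interferon-inducible genes were frequent on the positive side. Of 59 measured members of 3 interferon lists, 26 were held higher in 129 and 1 was held lower, beside 0.682% and 0.467% of all genes. Of these 26, 22 rose in both strains and 4 had a called rise in 129 alone. Every one of the 26 rose in 129, with changes between 1.65 and 6.59, while the changes in B6 lay between 0.11 and 4.69. Among the interferon-inducible GTPases, which attack the vacuoles of intracellular pathogens, 9 of 13 measured members were held higher and none lower, with a median interaction of 1.28. The median change was 4.65 in 129 and 3.43 in B6. Interferon effectors and regulators had 16 of 38 members held higher and 1 held lower, with a median interaction of 0.50. The p200 family of nucleic acid sensors did not move as a group at probe sets with 1 symbol, with a median of -0.28 and 1 of 8 members held, Ifi202b. Held probe sets annotated to several genes, described below, are not in this count. Of the 8, Aim2, Ifi207, Ifi213 and Ifi209 were dim, at mean log2 levels between 3.005 and 3.884. The median over all probe sets was 6.14.

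Promoters of 4 of these genes are given because they stand for the 4 patterns described next: Gbp2b rose in 129 alone, Gbp7 reached a higher level in 129, Ifit1 was lower in intact 129 retina and not in explants, and Trim30a rose more in B6. Each runs 5′ to 3′ from 250 bases before the gene's start to 50 after it, from RefSeq on GRCm38.p6, which is the sequence of C57BL/6J and not of 129. Capitals mark matches to the core of the interferon-stimulated response element, GAAANNGAA, searched on both strands, with overlapping matches run together.
Gbp2b (chr3:142594597-142594896, plus strand): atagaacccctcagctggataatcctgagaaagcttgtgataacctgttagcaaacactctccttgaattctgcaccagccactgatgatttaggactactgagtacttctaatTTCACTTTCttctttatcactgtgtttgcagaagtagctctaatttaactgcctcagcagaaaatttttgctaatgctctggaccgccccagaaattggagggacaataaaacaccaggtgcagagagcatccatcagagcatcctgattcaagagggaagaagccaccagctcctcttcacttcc
Gbp7 (chr3:142530086-142530385, plus strand): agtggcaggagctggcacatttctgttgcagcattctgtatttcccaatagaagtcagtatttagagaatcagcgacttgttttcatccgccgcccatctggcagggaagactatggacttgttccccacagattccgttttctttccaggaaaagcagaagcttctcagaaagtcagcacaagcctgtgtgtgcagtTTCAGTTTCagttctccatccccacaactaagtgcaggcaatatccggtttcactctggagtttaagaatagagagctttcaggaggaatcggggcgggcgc
Ifit1 (chr19:34640639-34640938, plus strand): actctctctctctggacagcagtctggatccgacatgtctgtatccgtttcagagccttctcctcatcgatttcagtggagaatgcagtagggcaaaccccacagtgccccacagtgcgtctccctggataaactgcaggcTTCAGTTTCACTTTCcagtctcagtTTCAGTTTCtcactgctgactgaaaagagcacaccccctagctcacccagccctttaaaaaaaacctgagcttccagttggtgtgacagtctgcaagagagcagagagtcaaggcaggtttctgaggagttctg
Trim30a (chr7:104446076-104446375, minus strand): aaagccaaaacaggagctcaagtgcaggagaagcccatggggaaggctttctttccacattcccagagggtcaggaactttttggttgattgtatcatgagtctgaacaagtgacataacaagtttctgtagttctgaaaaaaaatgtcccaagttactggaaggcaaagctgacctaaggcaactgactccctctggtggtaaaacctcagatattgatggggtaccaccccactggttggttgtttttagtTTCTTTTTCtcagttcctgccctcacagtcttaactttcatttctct
In Gbp2b, Gbp7 and Trim30a there was 1 match, and in Ifit1 there were 3, of which 2 overlap. A match was found for 9.76% of the 27025 genes with a promoter listed. The share was 18.6% of the 102 genes with a promoter among those held higher, 7.5% of the 80 of them outside the interferon lists, and 18% of 61 among those held lower, against 8.7% of the genes on the array. With 1 more A required at the end of the core, as searched first, the shares were 15.7% and 8.2%, against 3.99% of all. Within the interferon lists, the core was found for 59.1% of 22 genes held higher and 52.4% of 21 genes not held. The STAT site TTCNNNGAA, also searched on both strands, was found in 36.4% of those 22 and 14.3% of those 21, against 9.55% of all. A match is a run of letters and not a measured binding site, and a match of the STAT letters can overlap one of the core.

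A first set of interferon genes rose in 129 without a called change in B6. Ifi202b, a p200 protein that binds DNA, had intensities of 653 and 613 in the 129 explants and 14.1 and 12.6 in intact 129 retina, against 14.6 and 18.5 in the B6 explants and 13.5 and 14 in intact B6 retina. Both 129 explants stood far above the other 6 arrays, which lay between 12.6 and 18.5, and the interaction was 5.31 (SE 0.19, adjusted p = 6.98e-07). Gbp2b, a guanylate-binding GTPase, had 974 and 780.2 in the 129 explants and 30.0 and 39.1 in intact 129 retina, against 17.1 and 18.9 in the B6 explants and 13 and 18.8 in intact B6 retina. The 129 explants stood far above the B6 explants, the intact 129 arrays were already above the intact B6 ones, and the interaction was 4.47 (SE 0.27, adjusted p = 2.66e-05). Ifi44l, an interferon-induced cytoplasmic protein, had 125 and 84.8 in the 129 explants and 9.85 and 10.2 in intact 129 retina, against 9.65 and 8.62 in the B6 explants and 7.9 and 9.05 in intact B6 retina, again with only the 129 explants raised, and an interaction of 3.26 (SE 0.23, adjusted p = 7.55e-05). Its other probe sets gave 2.79 and 0.33. The largest interaction of the whole table, 6.54 (SE 0.17, adjusted p = 4.44e-08), was of the same form, with a change of 6.81 in 129 and 0.27 in B6, but that probe set is annotated to 2 genes and is not assigned to either. The study lists it as Ifi202b.

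**Figure D2:**
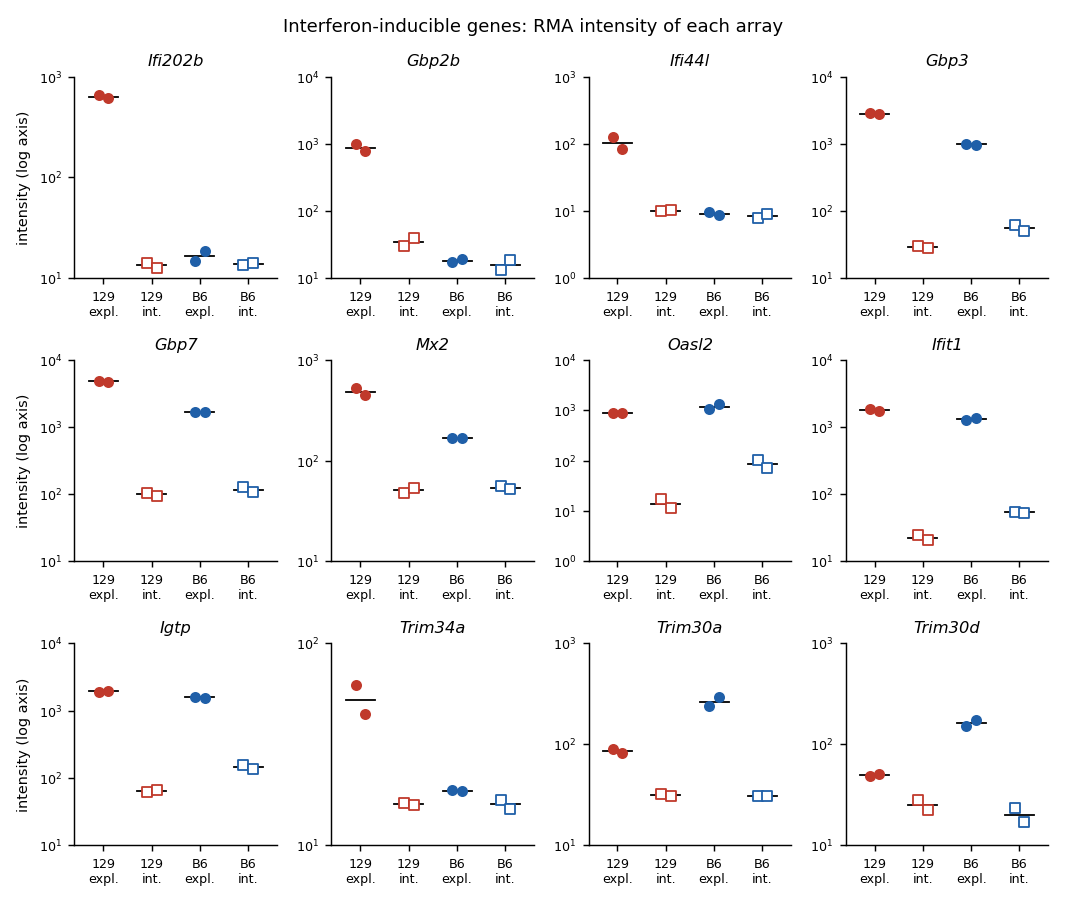
RMA intensity (log axis) of 12 interferon-inducible genes on each of the 8 arrays, with filled circles for explants, open squares for intact retina, red for 129 and blue for B6, and a line at the mean of the log2 values. Ifi202b, Gbp2b and Ifi44l are raised in the 129 explants alone, Oasl2, Ifit1 and Igtp are lower in intact 129 than in intact B6 retina but close in explants, and Trim30a and Trim30d are highest in the B6 explants.

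A second set rose strongly in both strains and ended higher in 129. Gbp3, another guanylate-binding GTPase, had 2876 and 2732 in the 129 explants and 30.4 and 27.7 in intact 129 retina, against 980.1 and 969.5 in the B6 explants and 62.5 and 50.8 in intact B6 retina. It was higher in the 129 than in the B6 explants and lower in intact 129 than in intact B6 retina, with no overlap in either, and rose 96.6-fold in 129 and 17.3-fold in B6 (interaction 2.48 (SE 0.15, adjusted p = 2.66e-05)). Its relative Gbp7 had 4895 and 4731 in the 129 explants and 106 and 94.9 in intact 129 retina, against 1709 and 1698 in the B6 explants and 128 and 107 in intact B6 retina. The intact arrays of the strains lay close together while the 129 explants were 2.83-fold higher than the B6 explants, for an interaction of 1.72 (SE 0.15, adjusted p = 3.89e-04) and of 1.61 at its other probe set. Iigp1, an immunity-related GTPase, had 1929.8 and 1624 in the 129 explants and 32.7 and 25.4 in intact 129 retina, against 741 and 714 in the B6 explants and 30.5 and 44.6 in intact B6 retina, overlapping in intact retina and separate in explants, with an interaction of 1.64 (SE 0.24, adjusted p = 0.0075). Mx2, a dynamin-like antiviral GTPase, had 522 and 450.2 in the 129 explants and 47.9 and 53.5 in intact 129 retina, against 169 and 168 in the B6 explants and 55.5 and 52.6 in intact B6 retina, and the same picture held, at 1.62 (SE 0.14, adjusted p = 3.27e-04). Herc6, a ligase of the ISG15 pathway, stood at 1.68 (SE 0.23, adjusted p = 0.0057) for its strongest probe set, while its other 3 probe sets stood at 0.68, 0.26 and 0.65 and were not called. Irf1, a transcription factor that interferons induce, had 1143 and 1154 in the 129 explants and 142 and 139.7 in intact 129 retina, against 609.6 and 578 in the B6 explants and 148 and 142 in intact B6 retina. Its intact arrays were level across strains and its 129 explants 1.93-fold higher (0.99 (SE 0.11, adjusted p = 0.0013)).

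Another set was lower in intact 129 than in intact B6 retina, and in explants the difference was either not called or of opposite sign. Oasl2, of the 2′-5′ oligoadenylate synthetase family, had 893 and 898 in the 129 explants and 17 and 11.3 in intact 129 retina, against 1050.3 and 1329 in the B6 explants and 105 and 70.0 in intact B6 retina. The difference between the explants of the strains did not pass the test, whereas the intact 129 arrays were 6.19-fold below the intact B6 arrays, for an interaction of 2.23 (SE 0.29, adjusted p = 0.004). Ifit1, a sensor of foreign RNA caps, had 1845 and 1723 in the 129 explants and 24.3 and 21 in intact 129 retina, against 1293 and 1348 in the B6 explants and 55 and 53.2 in intact B6 retina. Its strain difference was 0.43 (SE 0.11, adjusted p = 0.016) in explants and -1.26 (SE 0.11, adjusted p = 2.65e-05) in intact retina, of opposite sign, for an interaction of 1.69 (SE 0.15, adjusted p = 3.89e-04). Igtp, an immunity-related GTPase, had 1921 and 1936 in the 129 explants and 61.6 and 66.3 in intact 129 retina, against 1612 and 1528 in the B6 explants and 155 and 136 in intact B6 retina, likewise with a difference of 0.30 (SE 0.08, adjusted p = 0.028) in explants and -1.18 (SE 0.08, adjusted p = 6.21e-06) in intact retina. Usp18, which removes ISG15 and restrains interferon signalling, had 788 and 760.0 in the 129 explants and 13.5 and 15.4 in intact 129 retina, against 515 and 630.4 in the B6 explants and 38.6 and 25.1 in intact B6 retina. It was lower in intact 129 retina on both arrays, and in explants its difference of 0.44 (SE 0.18, adjusted p = 0.106) did not pass the test. Rtp4, Irgm2 and Ifih1 (the RNA sensor MDA5) were also called lower in intact 129 retina and, like Ifit1 and Igtp, called higher in the 129 explants, by 0.51, 0.62 and 0.59. For Eif2ak2 (the kinase PKR) and Rsad2 (viperin) the difference was called in intact retina alone at the strongest held probe set. The interactions of these 5 genes lay between 1.11 and 1.57. Other probe sets gave 0.21 for Rtp4, 1.16 and 0.02 for Eif2ak2, and 1.21 and 0.88 for Rsad2, of which those at 0.21 and 0.02 were not called. In the study's own list, another probe set of Rsad2 was near level between the strains in intact retina and higher in 129 after damage. The place of Rsad2 in this set thus holds for the probe set used.

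Over all 26 genes, each taken at its strongest held probe set, the median strain difference was 1.02 in explants and -0.22 in intact retina. Since the genes were chosen for a positive interaction, a larger difference in explants than in intact retina is fixed by the choice. In explants 22 were called higher in 129, none was lower and 4 were not called. Other probe sets of Xaf1 and Trim34a stood lower in the 129 than in the B6 explants, at -1.81 and -2.57. In intact retina 2 were higher, 10 lower and 14 not called. Explants with CHIR99021 had a median of 0.36, and 12 of the genes were higher there, none lower and 14 not called. Ifi202b, Gbp2b and Ifi44l kept differences of 5.44, 4.87 and 3.09 with the inhibitor, while Herc6, Irgm1 and Ifit2 stood at -0.13, -0.09 and -0.09. Whether the difference itself changed with the inhibitor was not tested.

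**Figure D3:**
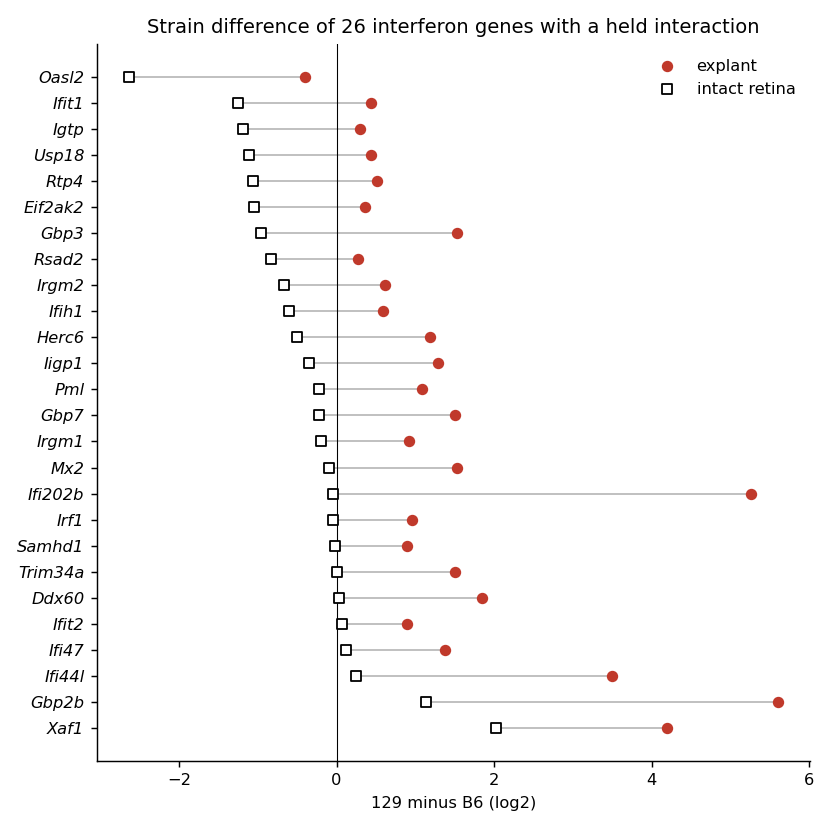
Difference between 129 and B6 (log2, horizontal axis) of the 26 interferon genes held higher in 129, ordered by the difference in intact retina, with circles for explants and open squares for intact retina. Oasl2 lies at -0.40 in explants and -2.63 in intact retina, and Ifi202b at 5.26 in explants and -0.04 in intact retina.

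A few interferon-inducible genes went the other way. Trim30a, a tripartite-motif protein that restrains Toll-like receptor signalling, had 89.8 and 81 in the 129 explants and 32 and 30.7 in intact 129 retina, against 237 and 292 in the B6 explants and 30.5 and 30.6 in intact B6 retina. The intact arrays were level and the B6 explants lay above the 129 explants, with an interaction of -1.66 (SE 0.23, adjusted p = 0.0046), although its other probe set stood at 0.28. Its paralog Trim30d had 48.5 and 50.2 in the 129 explants and 27.5 and 22.2 in intact 129 retina, against 153 and 173 in the B6 explants and 23 and 16.7 in intact B6 retina, again with the B6 explants on top (-2.06 (SE 0.26, adjusted p = 0.003)) and another probe set at -0.19. Trim34a of the same family had 62.3 and 44.4 in the 129 explants and 16.1 and 15.8 in intact 129 retina, against 18.6 and 18.4 in the B6 explants and 16.7 and 15.1 in intact B6 retina at its held probe set, where only the 129 explants were raised (1.5 (SE 0.24, adjusted p = 0.01)), but -1.20 (adjusted p = 0.019) at the other. The 2 probe sets of Trim34a thus disagreed in sign, and no direction is given for the gene, although it is counted among the 26 by its held probe set. Xaf1, a pro-apoptotic interferon target, was likewise held at 2.17 (SE 0.25, adjusted p = 0.0018) in 1 probe set and at -0.32 in the other. Ifi204, of the p200 family, was called at -1.52 (SE 0.25, adjusted p = 0.013) without being held, with a change of 0.75 in 129 and 2.27 in B6. Besides the probe set at 6.54, the largest held interactions of probe sets without a single symbol were at -2.87 and -2.68. The former had a change of 0.87 in 129 and 3.74 in B6, and the latter 1.01 in 129 and 3.68 in B6. Both are annotated to more than 1 gene and are not assigned to one here. The study lists each under several genes, among them Ifi205 of the p200 family.

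Antigen presentation genes leaned towards 129, with a median interaction of 0.34 over 19 measured members, 2 of them held higher and none lower. H2-T24, a nonclassical class I molecule, had 166 and 148 in the 129 explants and 13.2 and 17.4 in intact 129 retina, against 37.1 and 22.2 in the B6 explants and 25.1 and 39.2 in intact B6 retina. It rose in 129 alone and its intact 129 arrays were below the intact B6 ones (3.50 (SE 0.38, adjusted p = 0.0013)). Nlrc5, the transactivator of class I genes, had 715 and 703 in the 129 explants and 14.3 and 15.5 in intact 129 retina, against 499.6 and 496 in the B6 explants and 18.9 and 24.8 in intact B6 retina. It rose 47.6-fold in 129 and 23-fold in B6 (1.05 (SE 0.16, adjusted p = 0.0094)).

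Genes of the cell cycle also leaned towards positive interactions. Ccnd1, the cyclin D1 that drives cells from G1 into S phase, had 595 and 630.2 in the 129 explants and 94.4 and 111 in intact 129 retina, against 230.4 and 250.2 in the B6 explants and 106 and 123 in intact B6 retina. Both strains rose, the intact arrays overlapped, and the 129 explants were 2.55-fold higher than the B6 explants, for an interaction of 1.51 (SE 0.18, adjusted p = 0.0023), with 1.39 and 1.10 at its other probe sets. Uhrf1, which carries DNA methylation through replication, had 103 and 119.7 in the 129 explants and 9.19 and 12.5 in intact 129 retina, against 43.5 and 40.3 in the B6 explants and 14.9 and 16.9 in intact B6 retina. It rose 10.3-fold in 129 and 2.64-fold in B6 (1.97 (SE 0.23, adjusted p = 0.002)), while its other probe set stood at 0.10. Mcm6, a subunit of the replicative helicase, had 146 and 154 in the 129 explants and 10.3 and 8.99 in intact 129 retina, against 135 and 131 in the B6 explants and 50.9 and 36.3 in intact B6 retina. Its explants lay close together across strains and its intact 129 arrays were far below the intact B6 ones, so that its interaction of 2.33 (SE 0.24, adjusted p = 8.53e-04) arose from the starting level, and its other probe sets gave 2.02 and -0.39. Of 44 measured genes of DNA replication 2 were held higher and none lower, with a median interaction of 0.23 and 36 positive members. Of 40 genes of mitosis 2 were held higher, Spc25 and Cenpa, with a median of 0.28 and 34 positive. These medians stood against -0.0025 for all genes, and the held counts beside 0.682% of all genes. The housekeeping genes had a median of 0.15, with 6 of 8 positive. With the arrays centred on these genes, the median was 0.09 for DNA replication and 0.14 for mitosis. Among 20 regulators of G1 the median was 0.04 with Ccnd1 the 1 member held. For Spc25 the interaction joined a change of 0.78 in 129 with one of -2.675 in B6, from a higher level in intact B6 retina. Cenpa was held at 0.92 at 1 probe set and stood at 0.33, not called, at the one with the highest mean level.

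The other D-type cyclins had no held call. Ccnd2, the cyclin D2, stood at 0.75 (SE 0.32, adjusted p = 0.26) and was not called. Ccnd3, the cyclin D3 of mature Müller glia, had 507 and 448 in the 129 explants and 290.4 and 308 in intact 129 retina, against 795 and 925 in the B6 explants and 279.9 and 320.3 in intact B6 retina. It rose in both strains and more in B6, with an interaction of -0.85 (SE 0.14, adjusted p = 0.015) that was called but not held, and its other probe sets were at -0.24 and 0.07. Nes, the intermediate filament nestin of progenitors, had 408 and 377 in the 129 explants and 176 and 178 in intact 129 retina, against 259 and 281 in the B6 explants and 218 and 211 in intact B6 retina and an interaction of 0.82 (SE 0.15, adjusted p = 0.02), also not held, with 0.70 and 0.60 at probe sets that were not called. Lin28a, an RNA-binding protein of progenitors, was at -0.41 (SE 0.15, adjusted p = 0.194) and was not called.

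Among chromatin factors, 2 genes moved in opposite directions. Hmga2, an architectural protein of progenitor chromatin, had 543 and 627 in the 129 explants and 42.5 and 49.1 in intact 129 retina, against 110.3 and 91.6 in the B6 explants and 60.0 and 80.9 in intact B6 retina. The 129 explants stood above all other arrays, the change in B6 did not pass the test, and the interaction was 3.15 (SE 0.30, adjusted p = 6.01e-04), with 2.92 and 2.51 at 2 other probe sets and 0.33 at the last. Mbd1, which binds methylated DNA and represses transcription, showed the opposite. At its strongest probe set it had 49.6 and 39.3 in the 129 explants and 29 and 35 in intact 129 retina, against 312 and 283 in the B6 explants and 45.1 and 32.1 in intact B6 retina, with only the B6 explants raised (-2.49 (SE 0.29, adjusted p = 0.002)). All 4 of its other probe sets also gave negative interactions, -1.99, -1.34, -1.19 and -1.02. The remaining genes of the list of 18 were not held, and the list's median was -0.12.

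**Figure D4:**
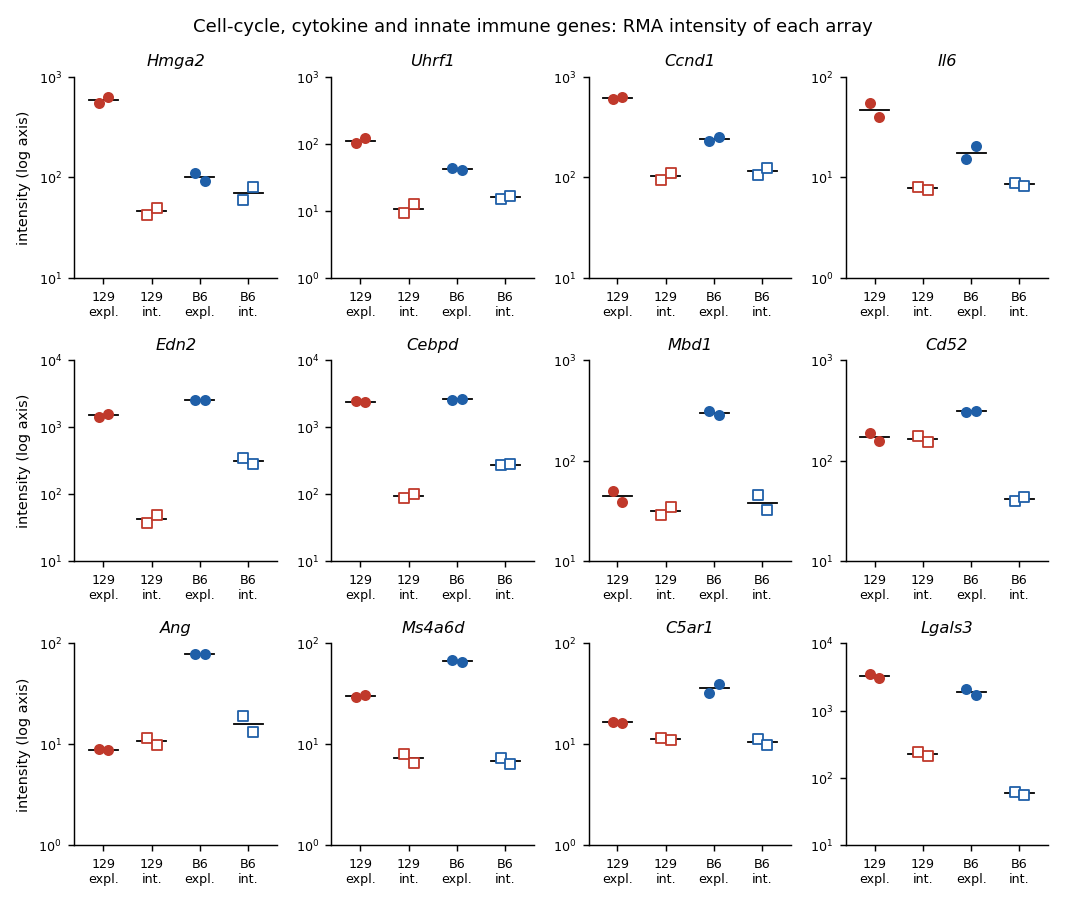
RMA intensity (log axis) of 12 genes outside the interferon lists on each of the 8 arrays, with symbols as for the interferon genes. Hmga2 is raised in the 129 explants alone and Mbd1 and Ang in the B6 explants alone. Cd52 is lowest in intact B6 retina and highest in the B6 explants. Cebpd is close together in the explants of the strains and lower in intact 129 than in intact B6 retina. Edn2 is lower in 129 in both conditions, by less in explants.

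Cytokines and signalling genes moved in both directions. Il6, a cytokine of tissue damage, had 54.1 and 40.2 in the 129 explants and 8.08 and 7.54 in intact 129 retina, against 15.2 and 20.3 in the B6 explants and 8.76 and 8.27 in intact B6 retina. It was highest in the 129 explants without overlap (1.53 (SE 0.23, adjusted p = 0.0081)). Cxcl1, a neutrophil chemokine, had 221 and 195 in the 129 explants and 23.7 and 28.8 in intact 129 retina, against 70.9 and 75.6 in the B6 explants and 23 and 21.4 in intact B6 retina and an interaction of 1.27 (SE 0.16, adjusted p = 0.0034). Another held probe set of Cxcl1 gave 1.05, and the one with the highest mean level gave 0.225 and was not called. At the probe sets printed, the 129 explants stood above the B6 explants for both genes, while the chemokines Ccl9 and Cxcl16 stood higher in the B6 explants. Ccl9 had 82.7 and 73.6 in the 129 explants and 42.5 and 54.4 in intact 129 retina, against 242 and 218 in the B6 explants and 56.4 and 66.9 in intact B6 retina (-1.21 (SE 0.18, adjusted p = 0.0081)), and Cxcl16 had 116 and 91.3 in the 129 explants and 109 and 102 in intact 129 retina, against 193 and 222 in the B6 explants and 86.9 and 97.7 in intact B6 retina (-1.19 (SE 0.18, adjusted p = 0.0079)). Il18, an inflammasome cytokine, was higher in intact 129 retina and rose in B6 alone (-0.91 (SE 0.12, adjusted p = 0.0043)). Of 25 measured cytokines and chemokines 2 were held higher and 3 lower.

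Several damage-response genes differed in intact retina and lay closer together in explants. Edn2, endothelin 2, which stressed photoreceptors release, had 1405 and 1593 in the 129 explants and 36.9 and 48.8 in intact 129 retina, against 2556 and 2576 in the B6 explants and 348 and 280.4 in intact B6 retina. The 129 explants were 1.72-fold below the B6 explants and the intact 129 arrays 7.37-fold below the intact B6 ones, so that the strains drew closer (2.10 (SE 0.20, adjusted p = 6.01e-04)). Cebpd, a transcription factor of reactive glia, had 2426 and 2338 in the 129 explants and 88.3 and 101 in intact 129 retina, against 2556 and 2636 in the B6 explants and 275 and 278 in intact B6 retina. Its explants lay within 1.09-fold of each other and its intact arrays 2.92-fold apart (1.42 (SE 0.11, adjusted p = 1.52e-04)), with 0.17 at its other probe set. Osmr, the oncostatin M receptor that signals to STAT3, had 1134 and 1073 in the 129 explants and 76.7 and 82.9 in intact 129 retina, against 1207 and 1190.5 in the B6 explants and 184 and 154 in intact B6 retina, with the same order of groups (0.96 (SE 0.13, adjusted p = 0.005)) and other probe sets at 0.28 and 0.13 that were not called. Ednrb, the endothelin B receptor, went the other way, with the strains close together in intact retina and apart in explants. It had 62.5 and 77.4 in the 129 explants and 31.9 and 35.1 in intact 129 retina, against 33 and 33 in the B6 explants and 30.3 and 29.1 in intact B6 retina. Its interaction of 0.91 (SE 0.20, adjusted p = 0.045) was called but not held, and the other probe sets gave 0.87 and -0.04.

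Genes of MAP kinase output leaned towards 129, with a median interaction of 0.26 over 23 measured members, 17 of them positive, 2 held higher and 1, Etv4, held lower at -0.75. Fosl1, the AP-1 subunit Fra-1, had 260.2 and 263 in the 129 explants and 36.1 and 38.9 in intact 129 retina, against 123 and 124 in the B6 explants and 46.8 and 50.1 in intact B6 retina, without overlap between the explants of the strains (1.45 (SE 0.10, adjusted p = 7.55e-05)), and 0.52 at a probe set that was not called. Dusp6, a phosphatase that ERK activity induces, had 749.6 and 788 in the 129 explants and 221 and 257 in intact 129 retina, against 435 and 472 in the B6 explants and 294 and 325 in intact B6 retina (1.14 (SE 0.14, adjusted p = 0.003)). The EGF receptor ligands Hbegf and Btc rose in both strains and more in 129, at 1.24 (SE 0.16, adjusted p = 0.0036) and 1.18 (SE 0.14, adjusted p = 0.002), with 0.68 for Hbegf and an uncalled 0.86 for Btc at their other probe sets. Ndp, the Wnt receptor ligand norrin made by Müller glia, had 837 and 811 in the 129 explants and 117 and 127 in intact 129 retina, against 342 and 349 in the B6 explants and 109 and 119 in intact B6 retina (1.15 (SE 0.11, adjusted p = 4.89e-04)). Igf1 was held in the other direction at 1 probe set (-0.90 (SE 0.11, adjusted p = 0.0035)), while its other probe sets, at -0.51, -0.30 and -0.24, were not called. Of 24 measured growth factors and receptors 3 were held higher and 1 lower, and the list's median was -0.13, with 9 positive and 15 negative members. Fst, follistatin, which blocks activin, had 33.8 and 34.2 in the 129 explants and 31.1 and 28 in intact 129 retina, against 143 and 138 in the B6 explants and 23.7 and 22.5 in intact B6 retina. It was raised in the B6 explants alone at that probe set (-2.40 (SE 0.23, adjusted p = 6.21e-04)), while its other one was not called at -0.91. Fgf2os, antisense to Fgf2, had 23.8 and 28.1 in the 129 explants and 32 and 33.3 in intact 129 retina, against 231 and 273 in the B6 explants and 69 and 58.9 in intact B6 retina, with the B6 explants well above the rest (-2.31 (SE 0.18, adjusted p = 1.67e-04)). Fgf2 itself missed the threshold at -0.95 (SE 0.22, adjusted p = 0.052).

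Genes of microglia and macrophages leaned towards B6. Of 35 measured members 3 were held lower in 129 at any probe set and none higher, beside 0.467% and 0.682% of all genes. At the probe set with the highest mean level, 1 member was held lower and 29 had a negative interaction, with a median of -0.44. Without any 1 array that median lay between -0.44 and -0.32. The summed intensity of the list was 5629 to 5781 in the 129 explants and 2455 to 2480 in intact 129 retina, against 10130 to 10840 in the B6 explants and 3096 to 3159 in intact B6 retina. The part of this in the genes named here was not tested. Ms4a6d, a membrane protein of macrophages, had 29.2 and 30.9 in the 129 explants and 8.03 and 6.52 in intact 129 retina, against 69.2 and 65 in the B6 explants and 7.32 and 6.4 in intact B6 retina. It was at like levels in intact retina and rose in both strains, further in B6 (-1.24 (SE 0.16, adjusted p = 0.0034)), with -0.91 and -0.03 at its other probe sets. C5ar1, the receptor of the complement fragment C5a, had 16.6 and 16.3 in the 129 explants and 11.6 and 10.9 in intact 129 retina, against 32.2 and 39.5 in the B6 explants and 11.2 and 9.84 in intact B6 retina and an interaction of -1.22 (SE 0.15, adjusted p = 0.0028), with -0.10 at its other probe set. Olfml3, an extracellular protein of microglia, had 58.6 and 54.7 in the 129 explants and 61.4 and 53.1 in intact 129 retina, against 248 and 237 in the B6 explants and 119.8 and 118 in intact B6 retina. It was lower in 129 throughout and rose in B6 alone (-1.04 (SE 0.12, adjusted p = 0.0019)).

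Cd52, a surface glycopeptide of leukocytes, had 189.5 and 155 in the 129 explants and 177 and 154 in intact 129 retina, against 308 and 314 in the B6 explants and 39.9 and 43.5 in intact B6 retina. It was higher in intact 129 than in intact B6 retina and rose in B6 alone (-2.84 (SE 0.19, adjusted p = 5.83e-05)), the largest negative one held by a probe set with 1 symbol. Ang, a secreted ribonuclease, had 8.89 and 8.74 in the 129 explants and 11.5 and 9.76 in intact 129 retina, against 79.3 and 78.2 in the B6 explants and 18.9 and 13.1 in intact B6 retina. Only the B6 explants were raised (-2.59 (SE 0.27, adjusted p = 9.17e-04)), and its other probe sets gave -1.39 and -0.72. S100a4, a calcium-binding protein of migrating cells, had 161 and 124 in the 129 explants and 118 and 186 in intact 129 retina, against 483 and 603 in the B6 explants and 115 and 93.2 in intact B6 retina. Again the B6 explants stood alone (-2.45 (SE 0.33, adjusted p = 0.0045)). Icam1, an adhesion molecule for leukocytes, and Pmaip1, the pro-apoptotic protein Noxa, rose in both strains and more in B6, at -0.93 (SE 0.14, adjusted p = 0.0095) and -1.07 (SE 0.15, adjusted p = 0.0059).

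Reactive gliosis genes split, with 3 of 23 held higher and 3 lower. Lgals3, galectin-3, had 3500.3 and 3066 in the 129 explants and 239 and 209 in intact 129 retina, against 2102 and 1724 in the B6 explants and 61.8 and 55.2 in intact B6 retina. Its rise was larger in B6 from a lower start (-1.15 (SE 0.17, adjusted p = 0.0076)), and the 129 explants remained above the B6 explants. Serpina3n, a serine protease inhibitor of reactive astrocytes, had 1399.9 and 1360.2 in the 129 explants and 175 and 192 in intact 129 retina, against 1229 and 1481 in the B6 explants and 79 and 98 in intact B6 retina. The strains differed in intact retina and overlapped in explants (-1.03 (SE 0.16, adjusted p = 0.01)). Cp, ceruloplasmin, had 249.7 and 226 in the 129 explants and 229 and 260.0 in intact 129 retina, against 698 and 669 in the B6 explants and 308 and 281 in intact B6 retina at its strongest probe set (-1.25 (SE 0.18, adjusted p = 0.0073)), with 1 more of its 8 probe sets called. Gfap, the intermediate filament of reactive glia, was called at -1.37 (adjusted p = 0.032) in 1 probe set without being held, and its other probe sets were at 0.11 and 0.49. Lcn2, lipocalin 2, rose 84.1-fold in 129 and 87.6-fold in B6 and had no called interaction (-0.06 (SE 0.23, adjusted p = 0.933)), nor did the glial glutamate transporter Slc1a3 (-0.22 (SE 0.12, adjusted p = 0.375)).

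The 26 measured rod genes had a median change of -1.51 in 129 and -1.27 in B6. Cngb1, a subunit of the rod cyclic-nucleotide channel, had 846 and 851 in the 129 explants and 2891 and 2821 in intact 129 retina, against 1585 and 1679.6 in the B6 explants and 3255 and 3276 in intact B6 retina. The fall was larger in 129 (-0.75 (SE 0.11, adjusted p = 0.0068)), and Cngb1 was the 1 of 26 rod genes held. Of the 26, 24 had a negative interaction, with a median of -0.21, and of 11 cone genes none was held, with a median of -0.24. Opn4, the melanopsin of light-sensitive ganglion cells, had 166 and 193 in the 129 explants and 49.6 and 48.4 in intact 129 retina, against 34.1 and 38.7 in the B6 explants and 52.6 and 41.4 in intact B6 retina. The 129 explants alone were raised (2.23 (SE 0.20, adjusted p = 3.89e-04)), with 0.52 at its other probe set. Msmo1, an enzyme of cholesterol synthesis, had 945 and 977 in the 129 explants and 724 and 675 in intact 129 retina, against 345 and 287 in the B6 explants and 773 and 582 in intact B6 retina. The intact arrays overlapped, and it rose 1.38-fold in 129 and fell 2.13-fold in B6 (1.55 (SE 0.18, adjusted p = 0.0024)), while its other probe set stood at -0.10. Of the measured genes of that pathway 16 of 19 had positive interactions, with a median of 0.32, and 1 was held.

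**Figure D5:**
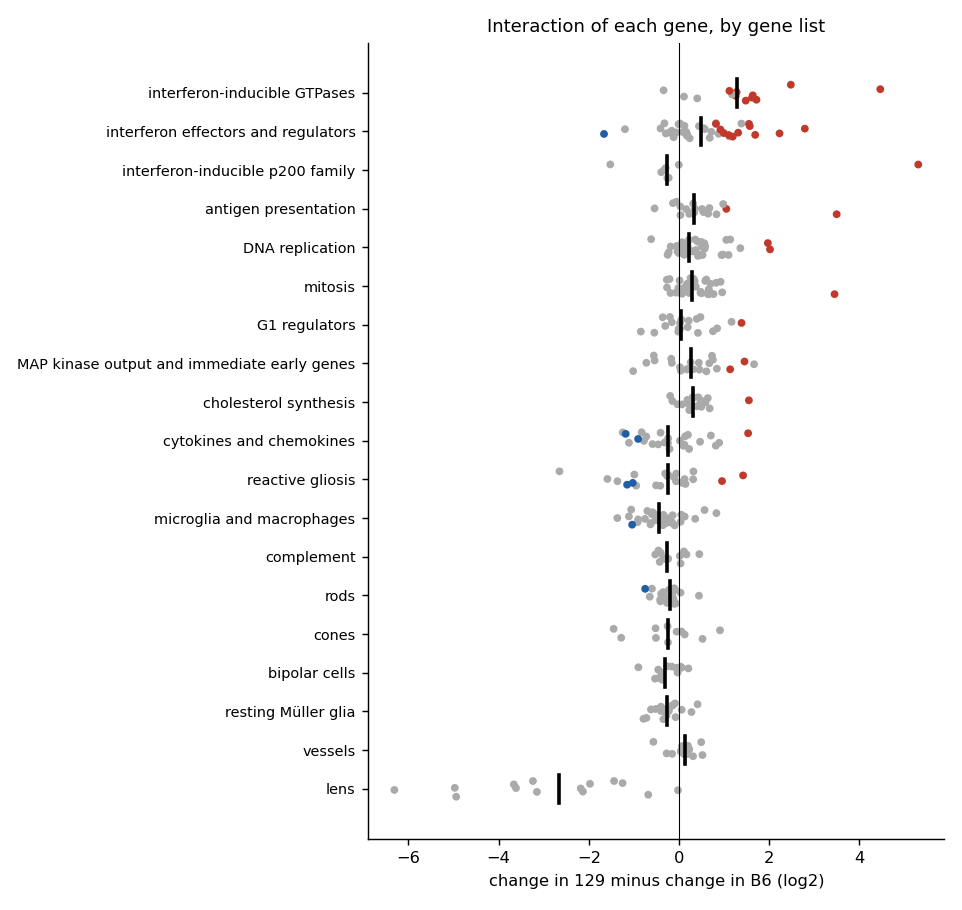
Interaction of each measured gene (log2, horizontal axis) in 19 gene lists, 1 point for each gene at the probe set with the highest mean level, with black bars at the median. Red and blue points are held positive and held negative ones. The median is 1.28 for the interferon-inducible GTPases, -0.44 for microglia and macrophages and -2.66 for lens genes, none of which was called.

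In some genes the strains moved in opposite directions or only 1 of them fell. Spc25, a kinetochore protein, had 90.0 and 70.3 in the 129 explants and 42.3 and 50.9 in intact 129 retina, against 377 and 418 in the B6 explants and 2327 and 2759 in intact B6 retina at its strongest probe set. It rose in 129 and fell in B6, and intact B6 retina stood far above all other arrays (3.45 (SE 0.22, adjusted p = 3.90e-05)), with 1.18 at the other probe set. Ppara, a nuclear receptor of fatty acid breakdown, had 18.5 and 19.4 in the 129 explants and 14.2 and 13.2 in intact 129 retina, against 53 and 61.3 in the B6 explants and 155 and 189 in intact B6 retina, and Synm, the intermediate filament synemin, had 109 and 85 in the 129 explants and 59 and 63.6 in intact 129 retina, against 249 and 235 in the B6 explants and 610.4 and 546 in intact B6 retina. Both were lower in 129 in each condition and fell in B6 while rising in 129, at 2.06 (SE 0.23, adjusted p = 0.0014) and 1.91 (SE 0.18, adjusted p = 5.33e-04). Other probe sets gave 1.13 and 1.19 for Ppara and 1.22 for Synm. Hdc, which makes histamine, had 13.5 and 12.4 in the 129 explants and 14.6 and 15.3 in intact 129 retina, against 13.9 and 15.4 in the B6 explants and 117 and 142 in intact B6 retina. Intact B6 retina was the only group raised, and the interaction of 2.93 (SE 0.15, adjusted p = 1.39e-05) came from its fall. Tyr, the tyrosinase of melanin synthesis, was highest in intact B6 retina as well (1.15 (SE 0.17, adjusted p = 0.0076)), with other probe sets at 0.22 and 0.52 that were not called. Its list of pigmented epithelium and melanocytes had summed intensities of 614 to 644 in the 129 explants and 4723 to 11110 in intact 129 retina, against 657 to 667 in the B6 explants and 10070 to 12220 in intact B6 retina, and the part of these cells in the result was not tested.

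In others 129 fell, alone or further than B6. Hfe, a regulator of iron uptake, had 135 and 140.0 in the 129 explants and 376 and 449.6 in intact 129 retina, against 161 and 159 in the B6 explants and 156 and 136 in intact B6 retina. Intact 129 retina was raised and the other groups lay close together (-1.71 (SE 0.15, adjusted p = 3.27e-04), and -1.20 at its other probe set). Hao2, a peroxisomal hydroxyacid oxidase, had 26.3 and 27.8 in the 129 explants and 231 and 240.4 in intact 129 retina, against 25.7 and 30.0 in the B6 explants and 54.6 and 36.8 in intact B6 retina. It fell in both strains, far more in 129 (-2.43 (SE 0.24, adjusted p = 7.71e-04)), so that the explants overlapped. Lrrk1, a kinase of osteoclasts, had 66.6 and 59.4 in the 129 explants and 323 and 282 in intact 129 retina, against 36.6 and 30.9 in the B6 explants and 31.9 and 35.3 in intact B6 retina, with a fall in 129 alone (-2.26 (SE 0.17, adjusted p = 1.08e-04)), and its other probe sets gave -1.60 and 0.23. Myom2, a myosin-binding protein of muscle, fell in 129 and rose in B6 (-1.98 (SE 0.19, adjusted p = 6.21e-04)), with -1.41 at another probe set and an uncalled -0.73 and -0.17 at the rest. Spata9, a gene of the testis, had 35.1 and 42.1 in the 129 explants and 215 and 202 in intact 129 retina, against 10.3 and 12.4 in the B6 explants and 9.29 and 8.18 in intact B6 retina. It was higher in 129 in each condition and fell there alone (-2.82 (SE 0.18, adjusted p = 3.90e-05)), while its other probe set stood at 0.03.

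Cytoskeletal and matrix genes were mixed. Msn, moesin, which ties actin to the membrane, and Nav3, a neuron navigator of growing axons, rose more in 129 at 1 probe set each, at 1.17 (SE 0.12, adjusted p = 9.17e-04) and 1.08 (SE 0.15, adjusted p = 0.0054). The other probe set of Msn, with the higher level, stood at 0.15, with a rise of 2.33 in 129 and 2.18 in B6, and those of Nav3 at 0.31 and 0.79, and none of these was called. Sox11, a transcription factor of regrowing axons, had 109.8 and 109 in the 129 explants and 29.3 and 26.5 in intact 129 retina, against 557 and 449.7 in the B6 explants and 44 and 51.2 in intact B6 retina. At that probe set it rose more in B6 (-1.43 (SE 0.15, adjusted p = 0.0013)), and none of its other 5 probe sets was called. Of 16 measured genes of cytoskeleton and axon growth 3 were held higher and 1 lower. Serpinb2, the plasminogen activator inhibitor 2, had 42.5 and 35.5 in the 129 explants and 7.21 and 6.96 in intact 129 retina, against 10.9 and 13.3 in the B6 explants and 8.75 and 8.48 in intact B6 retina. The 129 explants were raised most (1.97 (SE 0.20, adjusted p = 9.17e-04)). Fn1, fibronectin, was higher in intact 129 than in intact B6 retina, and rose in B6 alone at 1 probe set (-1.41 (SE 0.19, adjusted p = 0.0041)). At its other one, also held at -0.84, it rose in both strains, by 1.28 in 129 and 2.13 in B6.

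Further single genes followed the same 2 forms. Ldb3, a Z-disc protein of muscle, had 174 and 185 in the 129 explants and 30.7 and 32.7 in intact 129 retina, against 62.3 and 52.7 in the B6 explants and 48.3 and 47.4 in intact B6 retina. It rose in 129 without a called change in B6 (2.24 (SE 0.13, adjusted p = 2.66e-05)), but its other probe sets stood at 0.29 and 0.68 and were not called. Notch4, a Notch receptor of endothelium, had 155 and 153 in the 129 explants and 52.8 and 54.7 in intact 129 retina, against 49.6 and 48.5 in the B6 explants and 61.7 and 50.8 in intact B6 retina and rose in 129 alone (1.71 (SE 0.24, adjusted p = 0.0052)), with other probe sets at -0.08 and 0.01. Akr1b8, an aldo-keto reductase, had 414 and 404 in the 129 explants and 55.8 and 46.9 in intact 129 retina, against 204 and 194 in the B6 explants and 88.5 and 63.6 in intact B6 retina. It rose in both strains and more in 129 (1.59 (SE 0.20, adjusted p = 0.0033)). Fxyd3, a regulator of the sodium pump, had 71.8 and 76.5 in the 129 explants and 68.4 and 55.6 in intact 129 retina, against 267 and 277 in the B6 explants and 69.9 and 68.8 in intact B6 retina. Only the B6 explants were raised (-1.70 (SE 0.15, adjusted p = 3.60e-04)).

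Agreement between probe sets was limited. Of the 208 held genes, 53 had another probe set called with the same sign, 81 had others of which none was called with that sign, and 75 had a single probe set, with 1 gene, Adamts4, counted under both signs. Adamts4, a protease of matrix proteoglycans, was held at 1.14 in 1 probe set and at -0.97 in the other, so that no direction is given for the gene. Whether the strains differ in sequence under the probes was not tested. Where probe sets of a gene disagree, a call is therefore a difference in signal at that probe set. It is not shown to be a difference in expression of the gene.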

How the data were processed

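Whole neural retina was measured on Affymetrix arrays in 6 groups of 2, and groups were taken from the labels. The intensity values were deposited by the authors as 1 table on the linear scale. They had been summarised with RMA (version not stated). RMA brings all arrays to 1 distribution, so that a shift of most genes in 1 group would not be seen. The intensities were taken to log2 and 64 control probe sets of 45101 were left out, with no filter on signal. The annotation gave 1 gene symbol to 34945 probe sets, several to 932 and none to 9160. A mean for each group was fitted in R (version 4.3.3) with limma (version 3.58.1), and eBayes, without trend, added 4.69 prior to 6 residual degrees of freedom. P-values were adjusted with Benjamini-Hochberg over 45037 probe sets, at a limit of 0.05. The number of arrays limits the precision. The steps were tested on simulated data.

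Genes named were those with the largest held interactions in each direction, up to 4 held members of each of 40 lists, genes of opposite change, genes brought within 1.2-fold in explants, genes named by the study, and, chosen after their values were seen, all held members of the interferon lists. For medians of lists, the probe set with the highest mean level stood for its gene, while held members of lists were counted at any probe set. Members, lists and rules were chosen with earlier results of these data known. Alternatives were a replicate block, a fit of the 8 arrays alone, probe sets above the median level, cyclic loess, centring on 8 housekeeping genes, an offset of 32 before log2, eBayes with trend and robust, and leaving out each array. The replicate numbers were not used to pair the samples in the main fit. Promoters came from RefSeq, and other kinds of data in the study were not analysed here.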

Additional observations from a re-analysis of the deposited data

Results flagged for a closer look

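The change in culture differed between the strains, by the test of the interaction itself, for 696 probe sets with the larger rise or smaller fall in 129 and for 465 with the reverse, or 384 and 1417 after centring on 8 housekeeping genes. The genes named were flagged by that test, and their interactions are change in 129 minus change in B6, on the log2 scale. Interferon genes flagged were Ifi202b at 5.31, Gbp2b at 4.47, Ifi44l at 3.26, Gbp3 at 2.48, Oasl2 at 2.23, Xaf1 at 2.17, Ddx60 at 1.82, Gbp7 at 1.72, Ifit1 at 1.69, Herc6 at 1.68, Iigp1 at 1.64, Mx2 at 1.62, Rtp4 at 1.57, Usp18 at 1.55, Trim34a at 1.5, Igtp at 1.48, Eif2ak2 at 1.40, Pml at 1.31, Irgm2 at 1.28, Ifi47 at 1.26, Ifih1 at 1.19, Irgm1 at 1.12, Rsad2 at 1.11, Irf1 at 0.99, Samhd1 at 0.92, Ifit2 at 0.82 and Trim30a at -1.66. Among other genes with positive interactions were H2-T24 at 3.50, Spc25 at 3.45, Hmga2 at 3.15, Hdc at 2.93, Mcm6 at 2.33, BC023105 at 2.28, Ldb3 at 2.24, Opn4 at 2.23, Edn2 at 2.10, Ppara at 2.06, Serpinb2 at 1.97, Uhrf1 at 1.97, Synm at 1.91 and Notch4 at 1.71. Smaller positive interactions were those of Tex9 at 1.64, Akr1b8 at 1.59, Msmo1 at 1.55, Il6 at 1.53, Ccnd1 at 1.51, Fosl1 at 1.45, Cebpd at 1.42, Ccnd1 at 1.39, Rnd3 at 1.28, Cxcl1 at 1.27, Hbegf at 1.24, Dtna at 1.18, Btc at 1.18, Cox8b at 1.18, Msn at 1.17, Ndp at 1.15, Tyr at 1.15, Adamts4 at 1.14, Dusp6 at 1.14, Nav3 at 1.08, Nlrc5 at 1.05, Osmr at 0.96 and Cenpa at 0.92. The larger negative interactions were those of Fxyd3 at -1.70, Hfe at -1.71, Orly at -1.72, Myom2 at -1.98, Trim30d at -2.06, Plekha4 at -2.22, Lrrk1 at -2.26, Fgf2os at -2.31, Fst at -2.40, Hao2 at -2.43, S100a4 at -2.45, Mbd1 at -2.49, Ang at -2.59, Spata9 at -2.82 and Cd52 at -2.84. Smaller negative ones were found for Etv4 at -0.75, Cngb1 at -0.75, Fhit at -0.86, Igf1 at -0.90, Il18 at -0.91, Icam1 at -0.93, Serpina3n at -1.03, Olfml3 at -1.04, Pmaip1 at -1.07, Lgals3 at -1.15, Cxcl16 at -1.19, Ccl9 at -1.21, C5ar1 at -1.22, Ms4a6d at -1.24, Cp at -1.25, Mbd1 at -1.34, Fn1 at -1.41 and Sox11 at -1.43. Those called in the fit of all arrays but not held in every fit without 1 array were Ednrb at 0.91, Nes at 0.82, Ccnd3 at -0.85 and Gfap at -1.37. None of the other probe sets of Tex9, Plekha4, Orly, Dtna and Cenpa was called. At another probe set Adamts4 was held at -0.97 and Trim34a was called at -1.20, so that no direction is given for either. The other probe set of Xaf1 stood at -0.32 and was not called. Single arrays within a group of 2 were not tested.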

How the results depend on the processing

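Every named gene with a held call kept its sign and its call in each alternative fit in which it was tested, and 37 of the 97 held probe sets named fell below the median level and were not tested in that fit. These genes were chosen among calls that held without any 1 array, so that their stability there is fixed by the choice. Over all calls, the 8 arrays alone shared 742 of the 1161 and cyclic loess 1106. Positive and negative calls numbered 696 and 465, with 271 held. A fit with the replicate block gave 580 and 387, with 186 held, and shared 913 of its 967 calls. Deviations of same-numbered arrays from their group means correlated at -0.107 to 0.0436 over 15 pairs of groups. These values over all probe sets gave no sign of pairing by number. They cannot exclude that same-numbered samples shared an animal or a batch, which is not stated. The 8 arrays alone gave 139 held calls. Probe sets above the median level gave 1184 positive calls and 521 held. An offset of 32 gave 1253 and 851, with 578 held, and eBayes with trend and robust gave 1492 and 948, with 914 held. Cyclic loess gave 673 and 472. Without any 1 array the positive calls numbered 208 to 739 and the negative ones 144 to 432. Centring on 8 housekeeping genes moved the median of all probe sets by -0.138 and turned the split to 384 positive and 1417 negative calls, with 387 held. This centring moves the interaction of every probe set by the same amount, so that medians of lists relative to that shift are unchanged by construction. Medians near 0 change sign with the scaling, among them that of the regulators of G1, 0.04 and -0.10. The cause of these differences was not tested. In the lens list the median of -2.66 lay between -4.86 and -0.67 without any 1 array, and in the list of reactive gliosis the median of -0.24 lay between -0.38 and 0.00. The brightness of probes over background could not be judged, since the table gives no detection calls.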
